A study of Mus musculus with 10 samples.

Results

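The retinoic acid genes described here were 9 genes of the vitamin A pathway, Stra6, Crabp1, Crabp2, Rdh10, Aldh1a2, Cyp26b1, Rara, Rarb and Rarg, out of 18193 genes measured in isolated metanephric mesenchyme of the mouse embryo. They were chosen by name as the uptake, binding, synthesis, breakdown and receptor genes of the pathway, and every probe set that the platform annotation gives to exactly 1 of these symbols was taken, which gave 11 probe sets of 45037 tested. Each of the 9 genes was measured, Rdh10 and Rarg by 2 probe sets each and the others by 1, and no filter on low signals was applied. The Wnt9b mutant group (labelled Wnt9b-/-) had 5 arrays and the wild-type group (labelled Wnt9b+/+ littermates) had 5 arrays, all at stage E11.5. Per the labels' protocols, trypsin and pancreatin were used to separate the mesenchyme from the bud, and each array held its own pool of 25 to 30 mesenchymes, so an array averages many embryos. The series' design text calls the controls heterozygous, whereas the sample labels call them wild type, and the sample labels were followed. Nothing in the labels describes how the Wnt9b allele was made. The comparison asks which transcripts of the mesenchyme differ when Wnt9b, a Wnt ligand made by the ureteric bud, is missing.

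Retinoic acid is made from vitamin A inside cells and acts as a short-range signal. Retinol is taken up, oxidised to retinaldehyde by a retinol dehydrogenase and then to retinoic acid by a retinaldehyde dehydrogenase. Retinoic acid binds nuclear receptors, which sit on repeated hexamers in target genes as partners of the RXR receptors, and it is removed by enzymes of the CYP26 family. In the mouse kidney the stroma, the interstitial cells around the nephron progenitors, makes and senses retinoic acid, and its receptors there are needed for the bud to express Ret, the receptor for the growth factor GDNF. Stromal cells are part of the isolated mesenchyme, from which the protocol was meant to separate the bud.

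The promoter of Rarb is shown because this receptor gene is known to be induced by retinoic acid through a repeat in it, and that of Cyp26b1 because this breakdown gene is also known to respond to retinoic acid. Those of Aldh1a2 and Rara are shown because these genes varied together between arrays, as given below. Each line is the 250 bases before the start site in RefSeq's annotation of GRCm38.p6, read 5′ to 3′ on the gene's strand, and capitals mark the repeat, the hexamers GGTTCA and AGTTCA in that order with 5 bases between them. The windows are chr14:16575477-16575726 on the minus strand for Rarb, chr6:84593811-84594060 on the minus strand for Cyp26b1, chr9:71215539-71215788 on the plus strand for Aldh1a2 and chr11:98937446-98937695 on the plus strand for Rara, the first of 4 start sites listed for that gene.
Rarb: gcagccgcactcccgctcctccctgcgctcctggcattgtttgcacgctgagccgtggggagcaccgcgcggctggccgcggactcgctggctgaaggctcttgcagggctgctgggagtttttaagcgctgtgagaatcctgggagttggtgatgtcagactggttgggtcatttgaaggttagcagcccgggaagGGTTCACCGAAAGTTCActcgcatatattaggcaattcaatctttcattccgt
Cyp26b1: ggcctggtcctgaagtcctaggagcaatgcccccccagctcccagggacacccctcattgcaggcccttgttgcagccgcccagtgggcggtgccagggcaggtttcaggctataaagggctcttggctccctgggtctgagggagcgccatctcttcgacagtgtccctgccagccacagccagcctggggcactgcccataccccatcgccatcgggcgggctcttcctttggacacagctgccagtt
Aldh1a2: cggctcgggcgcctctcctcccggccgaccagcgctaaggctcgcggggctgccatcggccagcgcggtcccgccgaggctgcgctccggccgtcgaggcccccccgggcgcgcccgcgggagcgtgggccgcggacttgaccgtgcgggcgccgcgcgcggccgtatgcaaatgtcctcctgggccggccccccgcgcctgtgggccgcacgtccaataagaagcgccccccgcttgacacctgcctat
Rara: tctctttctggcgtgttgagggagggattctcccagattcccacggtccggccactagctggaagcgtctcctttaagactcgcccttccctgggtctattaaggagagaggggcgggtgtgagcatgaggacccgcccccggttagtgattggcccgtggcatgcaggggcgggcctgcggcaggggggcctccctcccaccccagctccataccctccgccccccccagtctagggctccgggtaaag

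The Rarb repeat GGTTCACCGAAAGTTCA lies 53 to 37 bases before the start site, at chr14:16575513-16575529. Windows of 300 bases, 250 before and 50 after each start site, were searched on both strands, and 14 of them belonged to 7 of the 9 genes. This pair of hexamers at that spacing occurred in 2 of 32851 windows (0.00609%), of which the Rarb window was 1. A pair of AGGTCA hexamers at the same spacing occurred in 3 windows (0.00913%), none of these genes. Where each hexamer could be AGGTCA or a form of it with G for its leading A, T for its second G, or both changes, a spacer of 5 bases (DR5, which includes both searches above) gave 32 windows (0.0974%), and the same Rarb site was its only match among the 9 genes. The same choice of hexamers with spacers of 2 bases (DR2, 88 windows, 0.268%) or 1 base (DR1, 73 windows, 0.222%) matched no window of these genes. A match shows only that the letters are there.

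The mutant arrays and the wild-type arrays did not differ detectably at any of the 9 genes. None of the 11 probe sets passed an adjusted p of 0.05 (limma, two-sided, Benjamini-Hochberg over 45037 probe sets), against 2 probe sets (0.00444%) of all tested, and each had an adjusted p of 1.0. None had an unadjusted p under 0.05, against 4.51% of all probe sets, and the lowest was 0.108. In all 11 the ranges of the mutant and wild-type arrays overlapped, while 0.888% of all probe sets had groups that did not. The differences, given as mutant minus wild type on the scale log2(signal + 1), were above 0 in 6 probe sets and below 0 in 5, and 8 of 11 were within 0.1 of 0. Their median size without sign was 0.0632, against 0.183 over all probe sets. That comparison was not matched for brightness, and most of the 11 were brighter than the middle probe set. Bright probe sets vary less between arrays. The median within-group SD was 0.202 for probe sets as bright as Aldh1a2, against 0.484 for those like the dimmer Rarg probe set. The 95% interval of the difference lay within a 1.5-fold change in either direction for 7 probe sets and within a 2-fold change for 9, the exceptions being Rara and the dimmer Rarg probe set. A bulk measurement cannot tell fewer cells of a type from less RNA per cell.

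**Figure D1:**
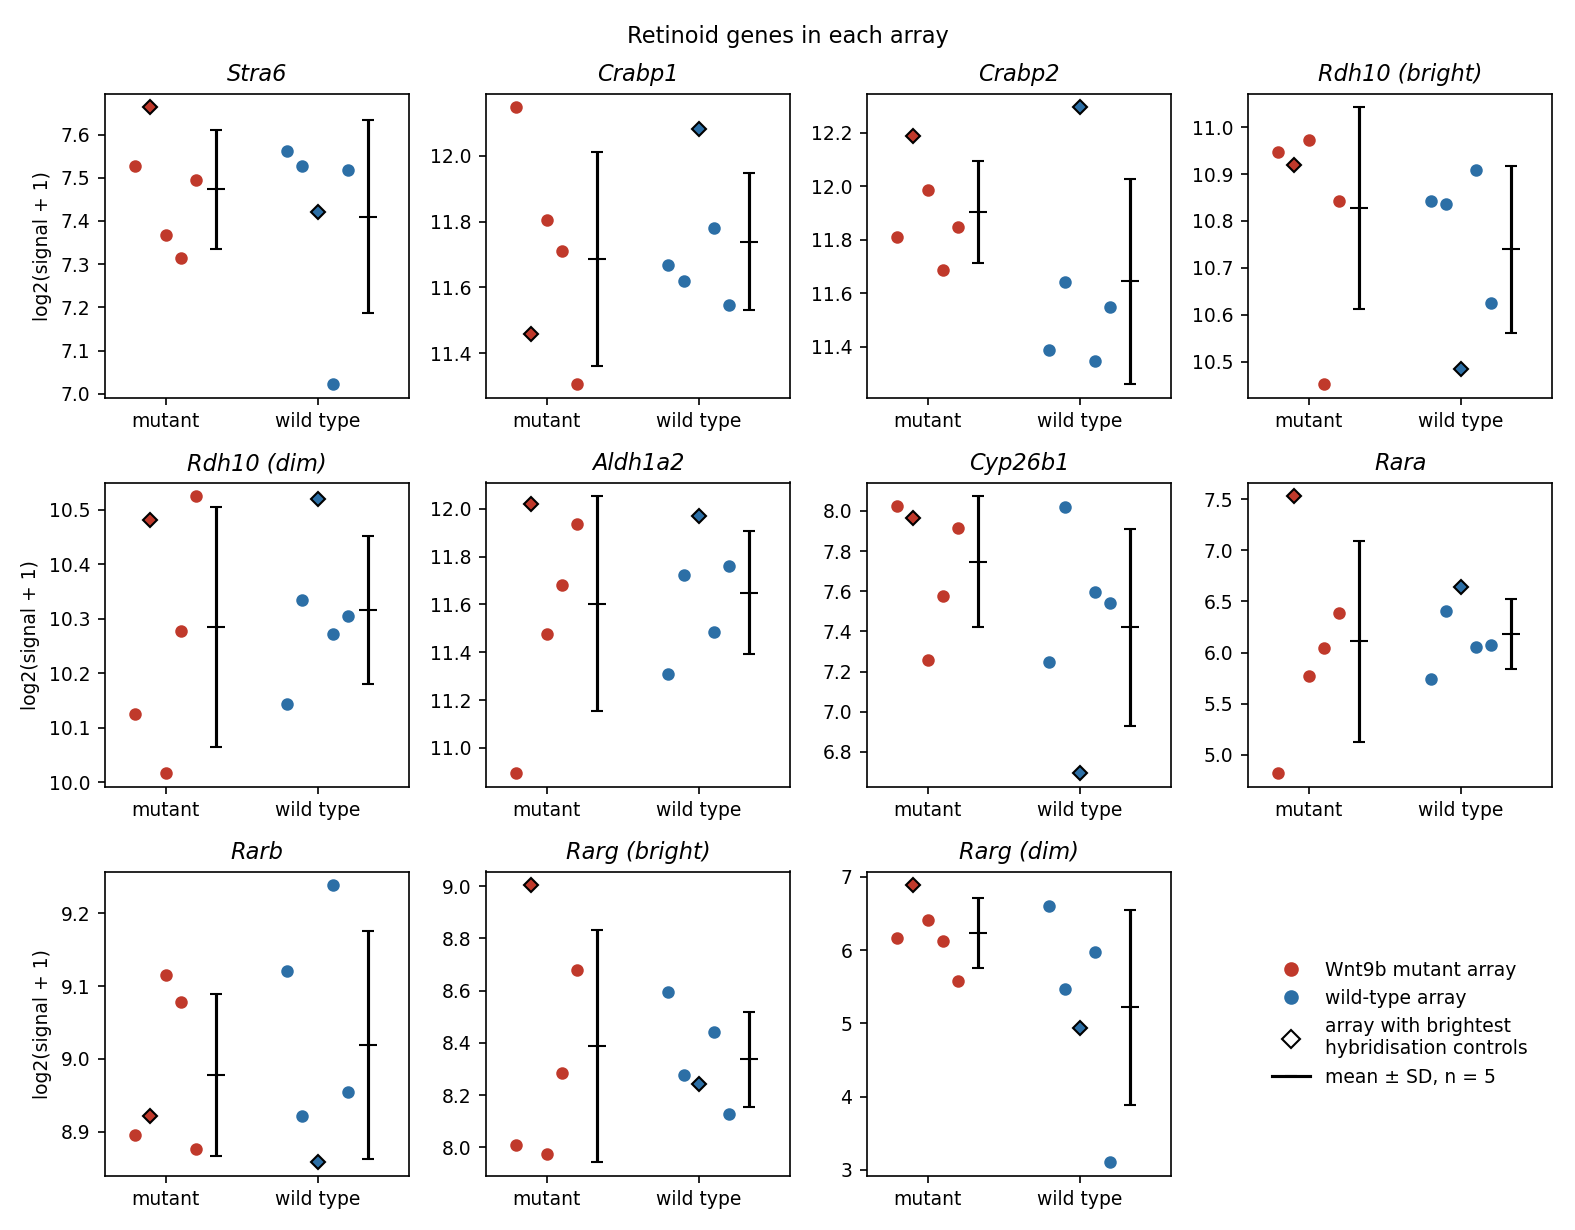
Log2(signal + 1) of each of the 11 probe sets (vertical axes, scaled separately) in 5 Wnt9b mutant and 5 wild-type arrays, with the mean ± SD of each group in black and outlined diamonds for the 2 arrays with the brightest hybridisation controls. The ranges of the groups overlap in every panel.

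Wnt9b itself, the mutated gene, was read by 2 probe sets, of which only the brighter is given here. Its signals were 41.8 to 106 in the mutant arrays, against 78.2 to 99.7 in the wild-type arrays (difference -0.24, SE 0.24). How the Wnt9b probes lie relative to the mutation is unknown here, so this does not check the labels. Arrays differed among themselves in ways that cut across the groups. The 18S ribosomal RNA control, read by its 5′ probe set, was high on 4 arrays (signals of 1975 to 2587, 2 arrays of each group) and low on 6 (92.4 to 322, 3 of each group). Array medians ran from 5.99 to 6.30 on the log2 scale. Hybridisation controls averaged 11.87 in mutant replicate 2 and 11.48 in wild-type replicate 3 on the log2 scale, where no other array exceeded 10.87. These 2 arrays also had the highest ratios of 3′ to 5′ beta-actin signal, 1.90 and 1.92 against 1.31 to 1.63. In the same fit 10 of 14 measured markers of nephron progenitors had an unadjusted p under 0.05 (limma). All 10 were lower in the mutant, against 1.78% of all genes lower with such a p, and the median of the list was -0.60. This list was chosen with earlier results of these data known, so its count is no independent test. The 2 probe sets that passed over all probe sets were of Cd109 (-2.49) and Cdh4 (-1.53).

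Stra6 encodes the membrane receptor that takes up retinol from its plasma carrier. Its signals were 183, 202, 164, 158 and 179 in mutant replicates 1 to 5, against 188, 184, 170.3, 129 and 182 in wild-type replicates 1 to 5. Wild-type replicate 4 was the lowest array and the other 9 lay close together. The difference was +0.06 (SE 0.15, 95% interval -0.26 to 0.39), with -0.12 in the high-18S set and +0.18 in the low-18S set.

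Crabp1 and Crabp2 encode small cytoplasmic proteins that bind retinoic acid; Crabp2 is known for handing it to the receptors. The Crabp1 signals were 4533, 2812, 3575, 3351 and 2534 in the mutant arrays, against 3256, 3145, 4327, 3515 and 2991 in the wild-type arrays. The lowest array and the highest array were both mutant. Crabp1 averaged 11.69 ± 0.32 in the mutant and 11.74 ± 0.21 in wild type (log2 signal, SD, n = 5 each), a difference of -0.05 (SE 0.19, interval -0.47 to 0.36). With mutant replicate 2 and wild-type replicate 3 both left out it was +0.09.

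For Crabp2 the signals were 3589, 4666, 4056, 3299 and 3685 in the mutant arrays, against 2681, 3195, 5021, 2606 and 2996 in the wild-type arrays. All 5 mutant arrays were above 4 of the wild-type arrays, and wild-type replicate 3, with bright hybridisation controls, was above every mutant array. Crabp2 averaged 11.90 ± 0.19 in the mutant and 11.64 ± 0.38 in wild type (log2 signal, SD, n = 5 each). The difference was +0.26 (SE 0.20, interval -0.18 to 0.70, unadjusted p = 0.222 and adjusted p = 1.0 with limma, n = 5 each). Leaving out wild-type replicate 3 moved it to +0.42, still uncalled, and it was +0.35 without both arrays with bright hybridisation controls. Both 18S sets gave the same sign, +0.17 in the high set and +0.32 in the low set.

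Rdh10 encodes the retinol dehydrogenase that makes retinaldehyde, the first step of synthesis. On its brighter probe set the signals were 1974, 1937, 2009.6, 1401 and 1834 in the mutant arrays, against 1835, 1828, 1433, 1921 and 1578 in the wild-type arrays. Mutant replicate 4 was the lowest array of all, and the other mutant arrays lay within or just above the wild-type range. The difference was +0.09 (SE 0.15, interval -0.25 to 0.43). On the other probe set the signals were 1116, 1429, 1035, 1239.5 and 1472 in the mutant arrays, against 1130.5, 1289.8, 1467, 1236 and 1264 in the wild-type arrays. That probe set gave -0.03 (SE 0.15), so the probe sets of this gene differed in sign, both within their error. The pair did not share an order of arrays either, since wild-type replicate 3 was the lowest wild-type array on the brighter probe set and the highest on the other.

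Aldh1a2 encodes the retinaldehyde dehydrogenase that makes retinoic acid in the early embryo. Its signals were 1904, 4153, 2845, 3286 and 3920.4 in the mutant arrays, against 2536, 3380.5, 4009.6, 2862 and 3470.3 in the wild-type arrays. The highest and the lowest array were both mutant, and the wild-type arrays all lay between them. Aldh1a2 averaged 11.60 ± 0.45 in the mutant and 11.65 ± 0.26 in wild type (log2 signal, SD, n = 5 each), a difference of -0.05 (SE 0.23, interval -0.56 to 0.47). Without mutant replicate 1, the lowest array, it was +0.13, and without mutant replicate 2, the highest, -0.15. In the high-18S set the difference was +0.07 and in the low-18S set -0.12.

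Cyp26b1 encodes an enzyme that oxidises and so inactivates retinoic acid. Its signals were 259.8, 249, 152, 189.9 and 240.4 in the mutant arrays, against 151, 258, 103, 193 and 186 in the wild-type arrays. Mutant replicates 1, 2 and 5 lay near the highest wild-type array, mutant replicates 3 and 4 lay among the other wild-type arrays, and wild-type replicates 1 and 3 were below every mutant array, replicate 1 only just. Cyp26b1 averaged 7.75 ± 0.33 in the mutant and 7.42 ± 0.49 in wild type (log2 signal, SD, n = 5 each), a difference of +0.33 (SE 0.26, interval -0.25 to 0.90, unadjusted p = 0.232 and adjusted p = 1.0 with limma, n = 5 each). In the high-18S set it was -0.04 and in the low-18S set +0.57. Leaving out wild-type replicate 3 gave +0.15. Whether these array sets differ in their effect was not tested.

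**Figure D2:**
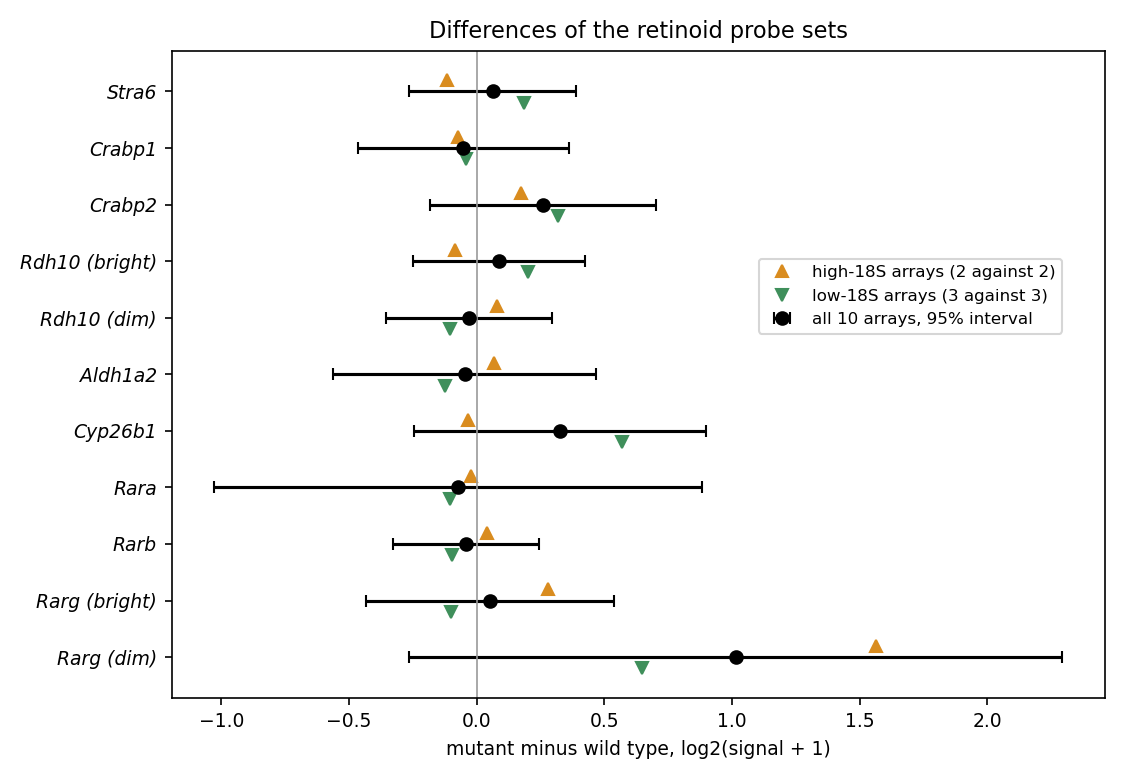
Difference of each probe set, mutant minus wild type on the log2(signal + 1) scale (horizontal axis), over all 10 arrays with its 95% interval (black), within the 4 high-18S arrays (orange) and within the 6 low-18S arrays (green). Every interval includes 0, and the widest, from -0.27 to 2.29, belongs to the dimmer Rarg probe set.

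The retinoic acid receptors are ligand-dependent transcription factors. Rara was the dimmest member that had a single probe set, with signals of 27.3, 183, 53.4, 65.2 and 82.4 in the mutant arrays, against 52.5, 83.6, 98.6, 65.4 and 66.3 in the wild-type arrays. Mutant replicates 1 and 2 held the lowest and the highest value of all arrays, and the other 3 mutant arrays lay within the wild-type range. Rara averaged 6.11 ± 0.98 in the mutant and 6.18 ± 0.35 in wild type (log2 signal, SD, n = 5 each), a difference of -0.07 (SE 0.43). Its interval of -1.03 to 0.88 leaves a 2-fold change in the lower direction inside. Leaving out mutant replicate 2 gave -0.43, and leaving out mutant replicate 1 gave +0.25.

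Rarb, the receptor gene with the repeat in its promoter, was the steadiest of the members. Its signals were 475, 484, 554, 539.7 and 469 in the mutant arrays, against 556, 484, 463, 603 and 495 in the wild-type arrays. The lowest and the highest array were both wild type. Rarb averaged 8.98 ± 0.11 in the mutant and 9.02 ± 0.16 in wild type (log2 signal, SD, n = 5 each), a difference of -0.04 (SE 0.13). The interval, -0.33 to 0.24, corresponds to a ratio of mutant to wild type between 0.797 and 1.18. Its pooled SD within groups was 0.136, and 9.7% of the 1000 probe sets nearest to it in brightness had a smaller one. The high-18S set gave +0.04 and the low-18S set -0.10.

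Rarg was measured by 2 probe sets that gave unlike values. The brighter had signals of 256, 512, 250.3, 311 and 409 in the mutant arrays, against 385, 309, 302, 347 and 279 in the wild-type arrays. The mutant arrays spread to both sides of the wild-type arrays, and the difference was +0.05 (SE 0.22, interval -0.43 to 0.54). On the dimmer probe set the signals were 70.6, 117, 84.4, 68.7 and 46.9 in the mutant arrays, against 96.4, 43.3, 29.6, 61.9 and 7.64 in the wild-type arrays. Here 3 wild-type arrays lay below the lowest mutant array and the other 2 lay among the mutant arrays. That difference, +1.01 (SE 0.57, interval -0.27 to 2.29, unadjusted p = 0.108 and adjusted p = 1.0 with limma, n = 5 each), was the largest in size among the 11 probe sets. It was +0.49 without wild-type replicate 5, whose signal was 7.64, and +0.69 with a pseudocount of 16. The array table does not say which Rarg transcripts each probe set reads.

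Spread between arrays was uneven among the members. The pooled within-group SD was 0.366 log2 units for Aldh1a2, above that of 94.7% of the 1000 probe sets nearest in brightness, and 0.736 for Rara, above 88.4%. It was 0.302 for Crabp2 (86.5%), 0.416 for Cyp26b1 (83.0%) and 0.273 for Crabp1 (80.2%). The Rdh10 probe sets, at 0.197 and 0.183, lay in the middle of theirs (52.4% and 43.6%), and Stra6, at 0.185 (10.7%), was among the steadier ones like Rarb. The dimmer Rarg probe set had the largest SD of the 11, 0.999 (93.2%), and the brighter had 0.34 (78.6%). Aldh1a2, Crabp2 and Rara were each highest, within their group, in mutant replicate 2 and wild-type replicate 3, where hybridisation controls were brightest, and 6.13% of all probe sets showed that order. The part of those arrays' quality in these values was not tested.

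**Figure D3:**
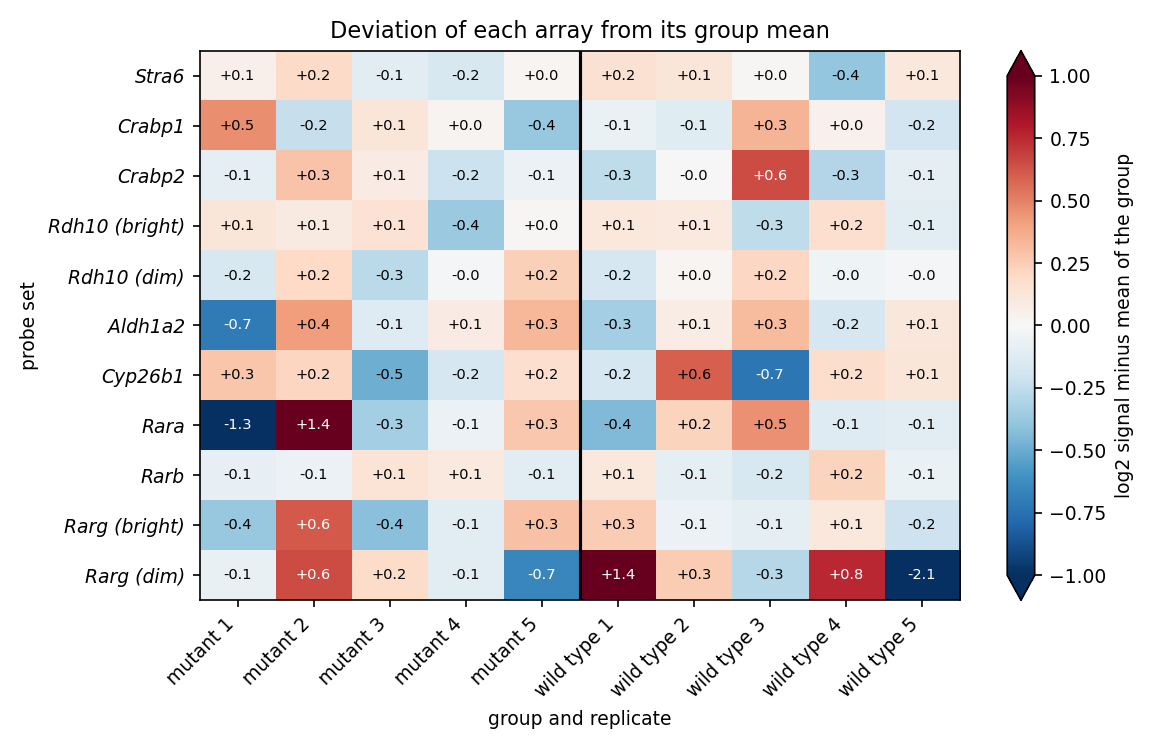
Deviation of each array (columns, by group and replicate) from the mean of its group for each probe set (rows), in log2 units, with colours capped at 1 in either direction. Aldh1a2 and Rara deviate the same way in mutant replicates 1 and 2 and in wild-type replicates 1 and 3, and Rarb stays within 0.3 of its group mean in every array.

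Among the 36 pairs of members, taken by brightest probe set over the 10 arrays, Aldh1a2 and Rara were the pair whose signals varied together beyond the adjustment for the number of pairs. Pearson's r was 0.906 (permutation p = 6e-05, adjusted over the pairs 0.00216) and Spearman's rho was 0.952 (permutation p = 0.00015, adjusted 0.0054). Both genes were lowest in mutant replicate 1 and wild-type replicate 1 and highest in mutant replicate 2 and wild-type replicate 3. Without mutant replicate 1 and wild-type replicate 1, the arrays farthest from the median of Aldh1a2, r was 0.805, and within the 6 low-18S arrays it was 0.955, while the 4 high-18S arrays were too few for a value. In all, 4 of the 36 pairs had an unadjusted permutation p under 0.05. The arrays share hybridisation quality as well as tissue, so the relation describes these arrays.

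Over all genes brighter than the median gene, 9096 in number, those most like Aldh1a2 over the 10 arrays were Hnrnpl (Pearson's r 0.964), Ssx2ip (0.937), Shroom4 (0.922), Usp30 (0.914) and Scaf4 (0.914). Those most like Rarb were Rbsn (0.922), Tcf20 (0.898), Ankrd11 (0.885), Auts2 (0.884) and Gli3 (0.883), the last a transcription factor of hedgehog signalling. These values are descriptions over 10 arrays, and the highest correlations among so many genes are high by selection. None of the 10 genes passed in the comparison of mutant with wild type (adjusted p = 1.0 for each with limma), and their differences ran from -0.16 for Scaf4 and Ankrd11 to +0.03 for Auts2.

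Other enzymes, carriers and transporters of retinoids did not pass either. Of 32 listed genes 29 were measured, 15 above 0 and 14 below 0, with a median difference of +0.01 against +0.02 over all genes. By brightest probe set none passed over all probe sets, as for all genes (0%), and none had an unadjusted p under 0.05, against 4.62% of all genes. Dimmer probe sets of Adh7 (-1.45) and Rdh14 (+0.44), both dehydrogenase genes, had an unadjusted p under 0.05 and an adjusted p of 1.0 with limma. That Adh7 probe set was very dim, with a mean log2 signal of 2.07. The brightest probe sets of these genes were at +0.37 for Adh7 and +0.04 for Rdh14. Cyp26a1, the sister enzyme of Cyp26b1, had the smallest p of the list by brightest probe set. Its signals were 15.2, 39.9, 49.8, 15.2 and 4.06 in the mutant arrays, against 77.1, 19.5, 38.7, 59.1 and 32.7 in the wild-type arrays. The groups overlapped, and at these low signals the difference was -1.11 (SE 0.62), or -0.64 with a pseudocount of 16. Dhrs3, which turns retinaldehyde back into retinol, was at +0.25 (SE 0.17), with signals of 739.9 to 1159.6 in the mutant arrays, against 646 to 892 in the wild-type arrays. Bco2, a carotenoid-cleaving enzyme, was at -0.39 (SE 0.25) and Rpe65, an isomerase known from the eye, at -0.88 (SE 0.56), both dim. In the high-18S set Rpe65 was at -1.90 and in the low-18S set at -0.20.

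Receptor partners and coregulators gave 16 measured genes of 18, 10 above 0 and 6 below 0, with a median of +0.03. By brightest probe set none passed over all probe sets, and none had an unadjusted p under 0.05. A very dim probe set of Crebbp, a coactivator, was at +1.48 (SE 0.44, unadjusted p = 0.00696 and adjusted p = 0.956 with limma, n = 5 each), and its brightest one at +0.05. Rxra, the RXR partner of the retinoic acid receptors, had signals of 301, 338, 289, 303 and 322 in the mutant arrays, against 246, 288, 226, 283 and 268 in the wild-type arrays. Every mutant array was above every wild-type array, the closest pair being 289 and 288, and the groups did not overlap for 1.21% of all genes. The difference was +0.25 (SE 0.12, unadjusted p = 0.0718 and adjusted p = 1.0 with limma, n = 5 each). The high-18S set gave +0.17 and the low-18S set +0.30. A dimmer Rxra probe set gave +0.02 and another -0.11. Ncoa1, a coactivator of nuclear receptors, was at +0.32 (SE 0.15), and its dimmer probe sets were at +0.25 and -0.35. Zfp423, a zinc finger protein, was at -0.24 (SE 0.14), and Tbl1xr1, a corepressor subunit, was at -0.13 (SE 0.13).

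Genes reported to respond to retinoic acid in embryos or in kidney stroma split evenly. Of 30 listed, 23 were measured, 12 above 0 and 11 below 0 (median 0.00), and none passed over all probe sets. Hoxb1, a homeobox gene with known retinoic acid response elements, had signals of 133, 224, 269.7, 194 and 282 in the mutant arrays, against 285, 364, 330.4, 234 and 348 in the wild-type arrays. The groups overlapped at wild-type replicate 4, and the difference was -0.53 (SE 0.23, unadjusted p = 0.0417 and adjusted p = 1.0 with limma, n = 5 each). Rarres1 went the other way, at +0.74 (SE 0.30, unadjusted p = 0.0355 and adjusted p = 1.0 with limma, n = 5 each), with dim signals of 32.7 to 52.5 in the mutant arrays, against 14.9 to 38.0 in the wild-type arrays, and +0.49 with a pseudocount of 16. These were the 2 members of the list with an unadjusted p under 0.05, 1 in each direction, against 2.85% of all genes higher and 1.78% lower. Nr2f1, a nuclear receptor of the COUP-TF family, was at +0.39 (SE 0.24).

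**Figure D4:**
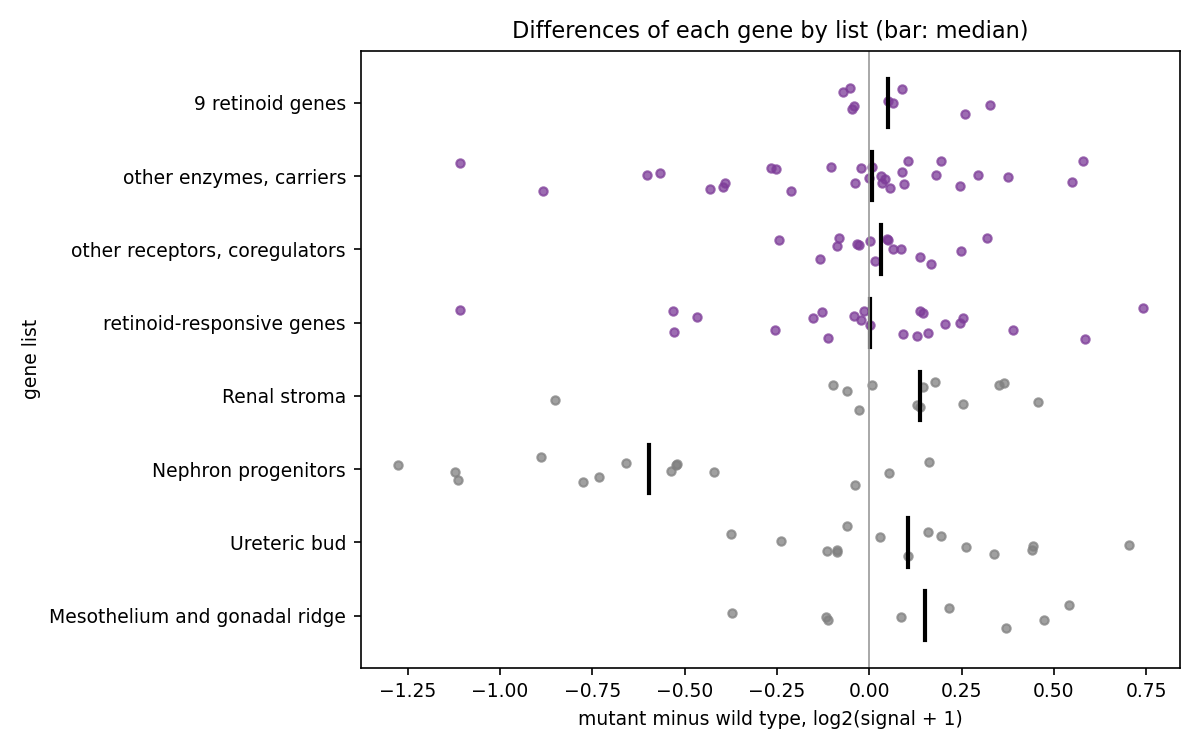
Difference of each gene, mutant minus wild type on the log2(signal + 1) scale (horizontal axis, brightest probe set), for the 9 retinoid genes, 3 lists of other retinoid genes (purple) and 4 marker lists (grey), with black bars at the medians. The retinoid lists centre near 0, with medians from 0.00 to 0.05, while the nephron progenitor list has a median of -0.60. All lists were chosen with earlier results of these data known.

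Ret, the bud receptor that stromal retinoic acid signalling is known to sustain in the mouse, and the stromal genes Ecm1 and Foxd1 were chosen after their values were seen. The Ret signals were 175, 179, 125, 95.3 and 107 in the mutant arrays, against 132, 101, 128, 125 and 106 in the wild-type arrays, which overlap. The difference was +0.16 (SE 0.21), and -0.04 in the high-18S set. Bud transcripts remained in every pool: the bud marker Epcam had signals of 659, 504, 319, 118 and 304 in the mutant arrays, against 267, 309, 406, 445 and 348 in the wild-type arrays. Among the mutant arrays, replicates 1 and 2 were highest for both Epcam and Ret and replicate 4 was lowest for both. The wild-type arrays did not share an order, since replicate 1 was lowest for Epcam and highest for Ret. The part of remaining bud tissue in the Ret values was not tested. Ecm1, a stromal gene known to respond to retinoic acid, was at +0.13 (SE 0.15), with +0.28 in the high-18S set, +0.03 in the low-18S set and +0.03 without wild-type replicate 5. Foxd1, the defining transcription factor of renal stroma, was at +0.18 (SE 0.17), with +0.40 in the high-18S set, +0.03 in the low-18S set and +0.09 without mutant replicate 5. Gdnf, the ligand of Ret made by the progenitors, was at -1.12 (SE 0.24) and did not pass over all probe sets.

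The tissue label was checked against marker lists by brightest probe set. Foxd1 averaged 11.36 ± 0.29 in the mutant and 11.18 ± 0.20 in wild type (log2 signal, SD, n = 5 each), and Six2, a transcription factor that keeps progenitors undifferentiated, averaged 9.79 ± 0.44 and 10.45 ± 0.27 in the same groups, so stromal and progenitor transcripts were both present. Of 13 measured stromal markers 9 were above 0 (median 0.14), with summed signals of 18281 to 25776 in the mutant arrays, against 17313 to 20694 in the wild-type arrays. Pdgfra (+0.36) and Tbx18 (+0.46) had an unadjusted p under 0.05 (limma) above 0, and Alx1 (-0.85) below 0. Of all genes 2.85% were higher and 1.78% lower with such a p, and none of these markers passed over all probe sets. Every mutant array was above every wild-type array for Pdgfra, at 1566 to 1824 against 1168 to 1530. The groups did not overlap for 1.21% of all genes. The summed signals of the 14 progenitor markers were 5686 to 9919 in the mutant arrays, against 10687 to 12938 in the wild-type arrays. Aldh1a2 is also known to be high in mesothelium and gonadal ridge. The summed signals of all 8 markers of these tissues were 344 to 831 in the mutant arrays, against 334 to 668 in the wild-type arrays. Single signals of these markers ran from 3.51 for Msln to 235 for Krt7, both in mutant arrays. Of 15 ureteric bud markers 9 were above 0 and the sums overlapped, at 2144 to 4997 in the mutant arrays, against 2340 to 4053 in the wild-type arrays. All 10 macrophage markers, 11 of 12 endothelial, 4 of 6 neuronal and 5 of 7 erythroid markers were above 0, as were 9991 of all 18193 genes, with overlapping sums in each list. C1qa, a complement gene of macrophages (+0.73), and the neural genes Stmn2 (+0.67, groups not overlapping) and Foxd3 (+0.99) had an unadjusted p under 0.05, and none passed over all probe sets. The part of these cell types in the retinoid values was not tested.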

How the data were processed

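RNA of 10 pools of E11.5 metanephric mesenchyme was measured on the Affymetrix array that the series' design text calls Mouse Genome 430.2. The authors deposited linear intensities, 1 per probe set and array. The sources used here do not give the method that summarised the probes. After trimming 2% of values at either end, every array had a mean intensity of 249.9, which shows a common scaling. Of 45101 probe sets 64 were controls and were left out. Groups follow the genotype labels. Replicate numbers follow accession order and only name arrays.

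Intensities were taken to log2(signal + 1), which understates changes of dim genes. Mutant and wild type were compared at each of 45037 probe sets with limma 3.58.1 in R 4.3.3 (lmFit, eBayes, two-sided), with Benjamini-Hochberg adjustment over all of them and calls at an adjusted p under 0.05. The fit was tested on simulated data. Gene symbols come from the platform annotation; lists use each gene's brightest probe set and are described by counts and medians. The named genes are the 9 members, up to 4 genes of each list with the smallest p, and the 5 genes most like Aldh1a2 and Rarb. Of the marker lists only some of those are named. Ret, Ecm1, Foxd1, Six2, Epcam, Krt8, Esrp1, Crebbp, Adh7, Rdh14, Msln, Cd109 and Cdh4 were added after their values were seen. Members and lists were chosen with earlier results of these data known. Correlations used 100000 permutations. The number of arrays limits the precision, and the labels describe each array as a distinct RNA pool, so the p-values cover the spread between pools. Alternatives were another normalization, pseudocount, filter, moderation, weighting or gene summary, blocks or subsets by title wording, 18S signal and hybridisation controls, and leaving out each array.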

Additional observations from a re-analysis of the deposited data

Results flagged for a closer look

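Among 128 groups of 5 arrays tested, those of the members and of the other genes named by rule, 9 had an array set apart from the other 4 by more than Dixon's 95% criterion, where chance gives about 1 in 20, or 6.4. No explanation was tested for any of them, and all values are log2 signals. Each such array is given with the range of the other 4 arrays of their group.

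Of the members, the brighter Rdh10 probe set was lowest in mutant replicate 4, at 10.45 against 10.84 to 10.97, and Stra6 was lowest in wild-type replicate 4, at 7.02 against 7.42 to 7.56. Shroom4, which varied like Aldh1a2, was lowest in mutant replicate 1, at 7.96 against 8.34 to 8.44, the array where Aldh1a2 was lowest too. Among stromal markers, Alx1 was highest in mutant replicate 1, at 7.35 against 6.70 to 6.86, and Tbx18 was lowest in wild-type replicate 3, at 9.28 against 9.54 to 9.64. Of the bud markers, Tfap2b was highest in mutant replicate 2, at 6.02 against 5.44 to 5.60, and Sox9 was lowest in mutant replicate 3, at 7.57 against 8.66 to 8.89. Of the endothelial markers, Cldn5 was lowest in mutant replicate 5, at 8.98 against 9.31 to 9.40, and Tie1 was highest in wild-type replicate 4, at 7.34 against 6.69 to 6.84.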

How the results depend on the processing

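No member was called under any of the 13 settings or on leaving out any of the 10 arrays, with a smallest adjusted p of 0.939 (limma). Outside the leave-one-out fits 9 of 139 member values changed sign, but many of the 139 could not. The filter, the moderation, the brightest probe set per gene and both blocks return the main difference by construction. So does the mean of probe sets for a gene with 1 probe set. The sign changes within the high-18S arrays alone were Stra6 at -0.12, the Rdh10 probe sets at -0.083 and +0.081, and Aldh1a2 at +0.068. Cyp26b1 at -0.035 and Rarb at +0.039 changed sign there too, as did Ret, to -0.037. Within the low-18S arrays the brighter Rarg probe set was at -0.10. With mutant replicate 2 and wild-type replicate 3 (bright hybridisation controls) both left out it was at -0.125 and Crabp1 at +0.089. The cause was not tested.

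On leaving out each array in turn, the differences ran from -0.034 to 0.10 for Stra6, -0.17 to 0.041 for Crabp1, 0.19 to 0.42 for Crabp2, 0.02 to 0.18 and -0.090 to 0.037 for the Rdh10 probe sets, -0.15 to 0.13 for Aldh1a2, 0.15 to 0.48 for Cyp26b1, -0.43 to 0.25 for Rara, -0.082 to 0.013 for Rarb, and -0.10 to 0.16 and 0.49 to 1.36 for the Rarg probe sets. The list medians ran from -0.0823 to 0.0291 for enzymes and carriers and from -0.00168 to 0.0604 for receptors and coregulators. For responsive genes the median ran from -0.00835 to 0.116. In the high-18S and low-18S arrays the enzyme median was -0.13 and +0.11. The responsive median was +0.13 in the high-18S arrays, and its low-18S value is not given here. The median of the 9 members, +0.05 over all arrays, was -0.02 and -0.04 in the high-18S and low-18S arrays.

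The count of called probe sets, 2 over all arrays, was 3 with median centring or a pseudocount of 16. It was 1 with quantile normalization, with the brightest probe set per gene, or without that pair of arrays, and 0 with the mean of probe sets per gene, with the 18S block and within either 18S set. On leaving out each array it was 0 to 1. The replicate block by title wording gave 0 calls. The title blocks were balanced between the genotypes, so the member differences, such as Crabp2 at 0.26, were bound to stay the same. Only their errors and p-values could move. Deviations of the 3 title pairs correlated at 0.084, 0.180 and 0.091 over probe sets. Each value was the highest that either array of the pair reached with any array of the other group. Each title pair also shared an 18S set. In the high-18S set, pairs without shared wording reached 0.090 (mutant replicate 4, wild-type replicate 2) and 0.089 (mutant replicate 5, wild-type replicate 5). In the low-18S set such pairs ran from -0.08 to 0.131. Pairs of arrays without shared title wording ran from -0.12 to 0.131. The titles do not pair all the arrays, so the main fit had no block. Whether the titles mark true pairs was not tested.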
